A study of Caenorhabditis elegans with 2 samples.

Results

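Genes for the proteins that initiate and elongate translation, and for the enzymes that charge tRNAs, were examined for binding by the tagged protein Y48G9A.11 in Caenorhabditis elegans. Members were taken by name from the protein-coding genes of the Ensembl annotation: initiation factors (eif, ife and ifg-1), elongation factors (eef), and aminoacyl-tRNA synthetases named by a letter, ars and the number 1 or 2. The rule gave 68 of 19973 protein-coding genes, of which 37 were translation factors and 31 were synthetases. No gene carried the name iftb-1 in this annotation, and the eIF2 beta subunit was counted as eif-2beta.

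All animals were of strain RW12291, in which CRISPR editing of the endogenous Y48G9A.11 gene (allele st12291, chromosome III) added TY1, EGFP and 3xFLAG tags. Whole L4 larvae were collected at 47.5 hours, after bleaching and synchronisation by L1 starvation, and chromatin was recovered with an antibody against GFP (ChIP-seq). The 2 biological replicates formed 1 group and there was no second condition. Neither untagged animals nor another tagged protein were analysed here, so binding by Y48G9A.11 and general capture of active promoters cannot be told apart at any gene below. Whole larvae mix all tissues, and peak lists show neither the tissue nor the share of cells in which a place was bound.

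In the first step of translation, eIF2 carries the initiator tRNA to the small ribosomal subunit, eIF2B recharges eIF2 with GTP, and eIF3 is the scaffold on which the initiation complex forms. The cap-binding protein eIF4E, encoded by the ife genes in worms, and the scaffold eIF4G, encoded by ifg-1, bring the mRNA. The factors eEF1A and eEF2 then deliver charged tRNAs and move the ribosome along, and synthetases attach each amino acid to its tRNA.

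A gene was called when the summit of a peak in the authors' thresholded list for both replicates lay from 1000 bp upstream to 200 bp downstream of its annotated 5' end. That list held 2228 of 93610 candidate peaks and kept peaks at an irreproducible discovery rate (IDR, a measure of how well ranks repeat between lists) of at most 0.01. Each peak carries the authors' signal value, whose scale is not stated, and the value from both replicates was close to the sum of the replicates' own values (median ratio 0.995). Between replicates the log2 ratio of signals over 2186 listed peaks had a median of 0.07 and an SD of 0.69. The SD was 0.62 for peaks with a signal of 80 to 200 and 0.34 above 200, and 844 of the 2228 peaks (37.9%) were in the thresholded lists of both replicates. Sequencing depth is unknown.

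The sequences at 3 of the member summits are shown first, since several member peaks, stronger and weaker ones, shared short stretches of sequence. Each is 100 bases around the summit in build ce11, written 5' to 3' on the strand of the named gene. The peaks are those of eif-3.B (chrII:14795135-14795234, plus strand), of eif-2Bgamma nearest its 5' end (chrII:6967748-6967847, minus strand) and of eef-1A.1 (chrIII:6972063-6972162, minus strand). Capitals mark 3 elements, described further on.
eif-3.B: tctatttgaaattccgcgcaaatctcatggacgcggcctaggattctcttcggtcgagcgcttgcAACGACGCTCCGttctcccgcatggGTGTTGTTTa
eif-2Bgamma: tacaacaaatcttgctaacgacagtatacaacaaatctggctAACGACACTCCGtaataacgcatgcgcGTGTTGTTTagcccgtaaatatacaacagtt
eef-1A.1: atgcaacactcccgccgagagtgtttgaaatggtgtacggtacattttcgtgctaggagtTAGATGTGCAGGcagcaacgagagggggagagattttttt

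Peaks lay at 10 of the 37 translation factor genes and at 1 of the 31 synthetase genes. These shares were 27% (95% Clopper-Pearson interval 13.8 to 44.1) and 3.23% (0.0816 to 16.7), beside 6.13% of all protein-coding genes. The intervals of the translation factors and the synthetases overlapped, and the interval of the synthetases held the share of all genes, so a lower share at synthetases than at genes in general was not detectable. Other genes of translation came from a list of 44 names, chosen with earlier results of these data known. Of the 37 in the annotation 7 held a peak (18.9%, 7.96 to 35.2). Among those were dohh-1, whose enzyme completes the hypusine residue of eIF5A, at a signal of 517.8, and drr-2, at 298.8. The others were ncbp-1 at 191.7, pelo-1 at 147.5, gfm-1 at 136.8, abcf-2 at 128.1 and tufm-2 at 110.0. All 7 summits also lay in the window of at least 1 other protein-coding gene, and that of dohh-1 lay at -912 bp from its 5' end. Ribosomal protein genes were called in 35 of 81 cases for the cytosolic ribosome (43.2%, 32.2 to 54.7) and in 18 of 70 for the mitochondrial one (25.7%, 16 to 37.6), both intervals overlapping that of the translation factors. Over called genes the median signal was 176.4 at the translation factors and 158.2 at all protein-coding genes.

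The strongest candidate in each window, called or not, gave another order for the synthetases. With a gene that had none set to 0, the median signal of the strongest candidate in the window was 60.9 over all translation factors, 42.2 over all synthetases and 25.9 over all protein-coding genes. In replicate 1 those medians were 33, 20.8 and 15.7, and in replicate 2 they were 33.3, 25.9 and 16.5. Both replicates gave this order of medians. The upper quartiles of the synthetases and of all protein-coding genes were closer, at 55.3 and 50.7 for both replicates together. They were 29.6 and 27.2 in replicate 1 and 32.3 and 30.7 in replicate 2. Most of these candidates were below the threshold. The value 0 was set for 5 of 31 synthetases and 7691 of 19973 protein-coding genes, so the medians also reflect how many genes lacked a candidate. A candidate stood in the window of 36 translation factors (all but ifg-1) and of 26 synthetases (all but lars-1, lars-2, qars-1, rars-1 and yars-1), beside 61.5% of all protein-coding genes.

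**Figure D1:**
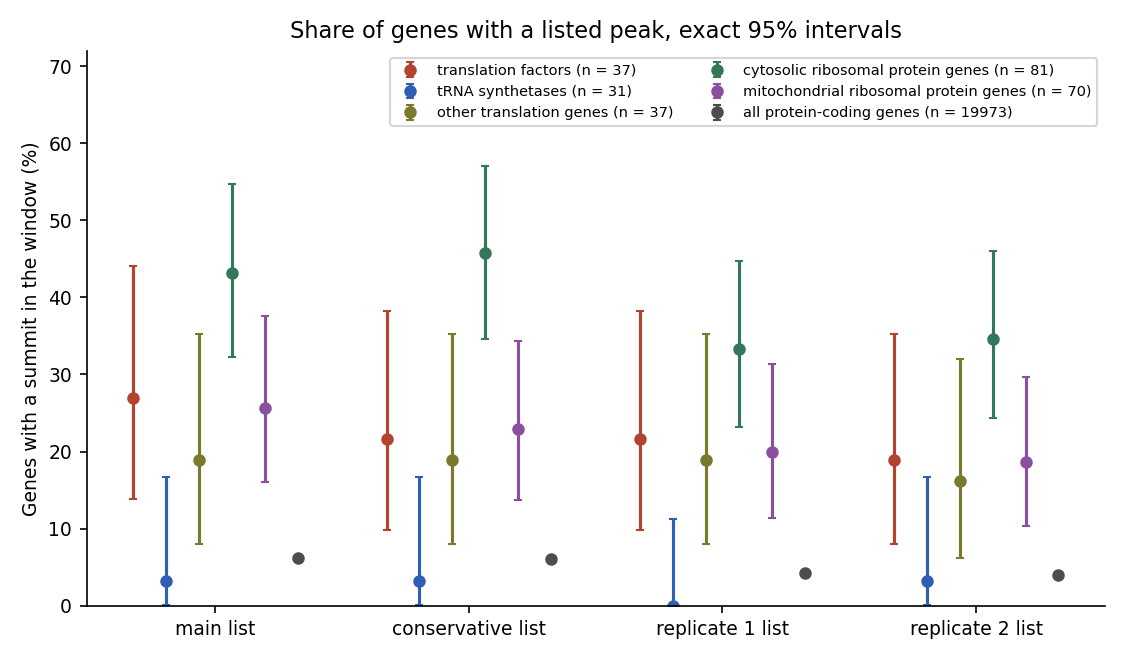
Share of genes with a peak in the 5' end window (y axis, percent) for each gene group (colours), in the main list, the conservative list and each replicate's own list (x axis); bars are 95% Clopper-Pearson intervals, which cover counting error only. Translation factors stood at 27% and synthetases at 3.23% in the main list, beside 6.13% of all protein-coding genes.

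**Figure D2:**
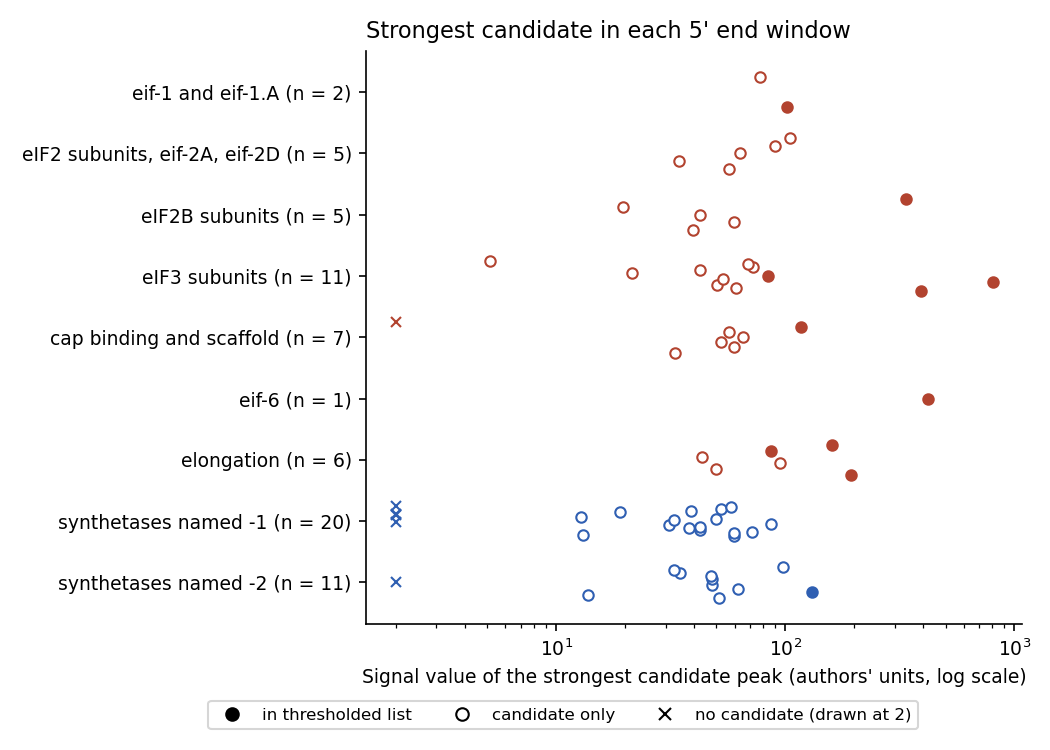
Signal of the strongest candidate peak (x axis, log scale, authors' units) in the window of each of the 68 members, grouped by role (y axis). Filled points are in the thresholded list, open points are not, and crosses at 2 are the 6 members without a candidate. The 4 signals above 300 belong to eif-2Bgamma, eif-3.B, eif-3.E and eif-6.

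Of the factors that prepare the small subunit, eif-1, whose product guards the choice of start codon, was called and eif-1.A was not. The signal at eif-1 was 35.9 in replicate 1 and 58 in replicate 2, and 101.2 for both together, which ranked 1773 of 2228. Neither replicate's own list held it, and the summit lay 392 bp upstream of eif-1 but 26 bp upstream of vps-24, which encodes an ESCRT-III subunit, on the other strand. The candidate at eif-1.A had a signal of 77.2.

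None of the 5 genes placed together by name, those of the eIF2 subunits with eif-2A and eif-2D, was called (interval 0 to 52.2, beside 6.13% of all protein-coding genes). The gamma subunit gene, eif-2gamma, whose product binds GTP and the initiator tRNA, came close, with 55.3 in replicate 1, 54.9 in replicate 2 and 104.5 together. Its IDR score was 667 where the threshold is 830, although the authors' conservative list held the peak. The beta subunit gene, eif-2beta, had 33 and 56.1 in replicates 1 and 2, 89.8 together and a score of 766. The remaining eif-2alpha, eif-2A and eif-2D had candidates of 34.5 to 63.5.

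In the eIF2B complex only eif-2Bgamma of 5 genes was called (20%, interval 0.505 to 71.6), and it had 2 peaks. The nearer summit, 150 bp upstream, had 214.8 in replicate 1 and 88.6 in replicate 2, the largest gap between replicates among the 4 genes above a signal of 300, and 305.4 together. The farther one, 858 bp upstream, had 168.0 and 156.7, and 337.0 together (rank 219), and was therefore the gene's strongest. It lay inside sup-39, annotated as a snRNA gene, within an intron of C15F1.5, and 52 bp from the 5' end of sup-39. Genes for snRNAs have near-identical copies, so reads there may be shared among copies. The 100 bases at this summit, like those at every member summit, occurred once in the genome. That count does not show whether shorter reads match elsewhere. Without peaks near tRNA, snRNA or snoRNA genes eif-2Bgamma was still called, from the nearer summit. The other eIF2B genes, eif-2Balpha, eif-2Bbeta, eif-2Bdelta and eif-2Bepsilon, had candidates of 19.6 to 59.6.

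Of the 11 eIF3 subunit genes 3 were called, and they spanned the whole range of signals at called members. At eif-3.E the signal was 402.8 in replicate 1 and 409.3 in replicate 2, and 802.5 together (rank 39), the strongest of all members, with its summit 189 bp upstream. At eif-3.B, a core subunit of the complex, the replicates gave 184.8 and 189.6, and together 392.0 (rank 167), 219 bp upstream. These values differed between replicates by far less than the SD over all peaks. At eif-3.G the replicates gave 60.3 and 27.9, and together 83.8 (rank 2091) with a score of 840, the closest to the threshold of all called members. The genes eif-3.C, eif-3.D, eif-3.F, eif-3.H, eif-3.I, eif-3.J, eif-3.K and eif-3.L had candidates of 5.15 to 72.5. The share called in this complex was 27.3% (interval 6.02 to 61), and the interval held the 6.13% of all protein-coding genes.

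Of the cap-binding and scaffold genes (7, with eif-4A3 placed here by name) only ife-5, one of the worm's eIF4E genes, was called (14.3%, interval 0.361 to 57.9). Its replicate signals were 63.6 and 56, and the joint signal was 117.5 (rank 1373), with a summit 126 bp upstream, in the 3' UTR of Y57A10A.29. The peak was in the list of replicate 1. In replicate 2 the place scored 671, and that replicate's list held only a peak of signal 3.33 elsewhere in the window. The genes ife-1, ife-2, ife-3, ife-4 and eif-4A3 had candidates of 33.1 to 65.1. At eif-6, whose product keeps the large ribosomal subunit from joining too early, the replicates gave 231.2 and 171.4, and together 418.6 (rank 150), 331 bp upstream.

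Of the 6 elongation factor genes 3 were called (50%, interval 11.8 to 88.2, beside 6.13% of all protein-coding genes). Their joint signals ran from 86.3 to 193.1, beside a median of 132.3 over all listed peaks. At eef-1A.1, which delivers charged tRNAs, the replicates gave 74.4 and 110.8, and together 193.1 (rank 530), 401 bp upstream. At eef-2, the translocase, they gave 54.9 and 100.9, and together 159.7 (rank 763), 30 bp downstream in the gene's own 5' UTR. At eef-1G, a subunit of the exchange factor that recharges eEF1A, they gave 62.1 and 32.3, and together 86.3 (rank 2072), 25 bp downstream. Replicate 2 was thus the higher at eef-1A.1 and eef-2 and the lower at eef-1G. The other eEF1A gene, eef-1A.2, had a candidate of 49.9 and eef-1B.2 one of 43.3. The gene eef-1B.1 lay just outside the threshold, with 53.7 and 36.9 in replicates 1 and 2, 94.9 together and a score of 722.

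The only synthetase called was ears-2, by its name a glutamyl-tRNA synthetase. Its signal was 52.7 in replicate 1 and 67.2 in replicate 2, and 131.0 together (rank 1145). The list of replicate 2 held the peak, whereas in replicate 1 it scored 663. None of the 20 synthetases whose names end in 1 and only ears-2 of the 11 that end in 2 had a peak, and the numbers are used here as names only. Both intervals (0 to 16.8 and 0.23 to 41.3) held the 6.13% of all protein-coding genes. Nearest to the threshold was yars-2 (tyrosyl), with 37.8 and 60.1 in the replicates, 97.4 together and a score of 767. It was followed by kars-1 (lysyl), with 50.7 and 32.8, 86.4 together and a score of 401, and by dars-1 (aspartyl), with 40.4 and 24.2, 59.5 together and a score of 388. The other synthetases with a candidate were aars-1, aars-2, cars-1, dars-2, ears-1, fars-1, fars-2, gars-1, hars-1, iars-1, iars-2, mars-1, nars-1, nars-2, pars-1, pars-2, rars-2, sars-1, sars-2, tars-1, vars-1 and wars-1, at signals from 12.8 to 71.5.

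The threshold did not sort the members by signal alone. Candidates at 3 translation factors and 2 synthetases without a call exceeded the lowest called signal, 83.8 at eif-3.G. Of the 10 called translation factors, 5 were in both replicates' own lists at that place: eef-1A.1, eif-2Bgamma, eif-3.B, eif-3.E and eif-6. A further 4 were in the list of a single replicate. The 5 supported by both had the highest joint signals of the 10, and the 6 with signals from 83.8 to 159.7, counting ears-2, each lacked support from at least one replicate's list. The conservative list held 7 of the 10, without eef-1G, eif-1 and eif-3.G, and also ears-2. With eif-2gamma it called 8 translation factors and 1 synthetase, beside 6.01% of all protein-coding genes. The list of replicate 1 called 8 translation factors and no synthetase (background 4.30%), and that of replicate 2 called 7 and 1 (background 4.03%).

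**Figure D3:**
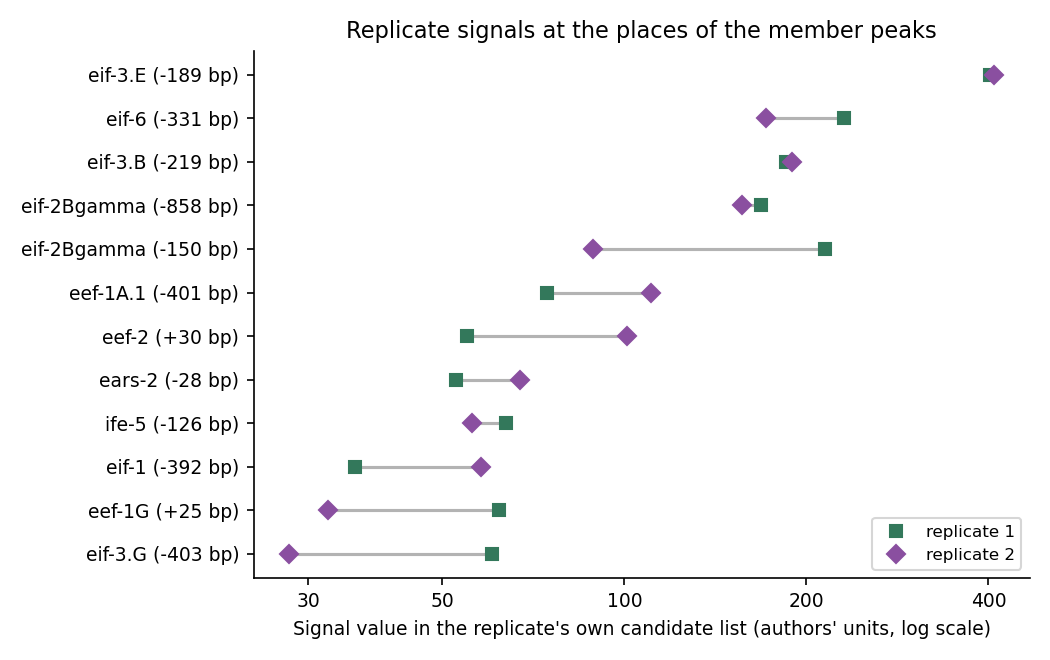
Signal at each of the 12 member peaks in replicate 1 (squares) and replicate 2 (diamonds) on a log axis in the authors' units; the number after each gene is the distance of the summit from its 5' end. The pairs were closest at eif-3.E (402.8 and 409.3) and farthest apart at the nearer eif-2Bgamma peak (214.8 and 88.6) and at eif-3.G (60.3 and 27.9).

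Peaks in promoters that 2 genes share were common among called members and among called genes in general, and a difference between the 2 shares was not tested. Of the 11 called members 7 (63.6%) had their strongest summit also in the window of another protein-coding gene, beside 49.2% of all called genes. The same 7 had a partner on the opposite strand, which 45.4% of all called genes (556 of 1225) had. A peak there cannot be assigned to either gene. The partners were B0511.17 at eif-3.E, pbs-2 (a proteasome subunit) at eif-6, rfc-4 (a subunit of the clamp loader of DNA replication) at eef-1A.1, clsp-1 at eef-2, uncp-18 at ears-2, vps-24 at eif-1 and ctf-4 at eef-1G. At eif-1 the window of pigb-1, on the same strand, held the summit too. At eif-6 the summit lay 331 bp from the member and 335 bp from pbs-2, almost midway. At ears-2 the opposing 5' ends were 92 bp apart, with the summit 28 bp from one and 64 bp from the other. The partner was the nearer gene at eef-1A.1, where rfc-4 began 140 bp away, and at eif-1. When each summit went only to the nearest 5' end, these 2 genes lost their call and 8 translation factors kept one. The share of all protein-coding genes with a call fell as well under this rule, from 6.13% to 4.66%.

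Close neighbours upstream were counted too. A protein-coding 5' end on the opposite strand within 1000 bp upstream was present at 18 of 37 translation factors (48.6%) and at 11 of 31 synthetases (35.5%), beside 17.7% of all protein-coding genes. Divergent genes were called more often in general, at 14% beside 3.66% of genes with neither a divergent nor a close same-strand neighbour upstream. Among divergent members 6 of 18 translation factors (33.3%, interval 13.3 to 59) and 1 of 11 synthetases (9.09%, 0.23 to 41.3) were called. With a close same-strand neighbour 2 of 7 translation factors were called (28.6%, 3.67 to 71), beside 7.21% of all such genes. With neither it was 2 of 12 (16.7%, 2.09 to 48.4). In each arrangement the share of the translation factors was above that of all genes so arranged, but its interval held that share. With only 18, 7 and 12 genes, a higher share was not resolved there. Of the synthetases 0 of 10 with a close same-strand neighbour and 0 of 10 with neither were called (interval 0 to 30.8 for each). Such a neighbour was present at 32.3% of synthetases and 18.9% of translation factors, beside 17.9% of all protein-coding genes. The order of the 2 groups was thus the same in each arrangement, with wide and overlapping intervals. The part that arrangement played in the counts was not tested. The median distance of the summit was -219 bp over called members and -247 bp over all called genes.

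**Figure D4:**
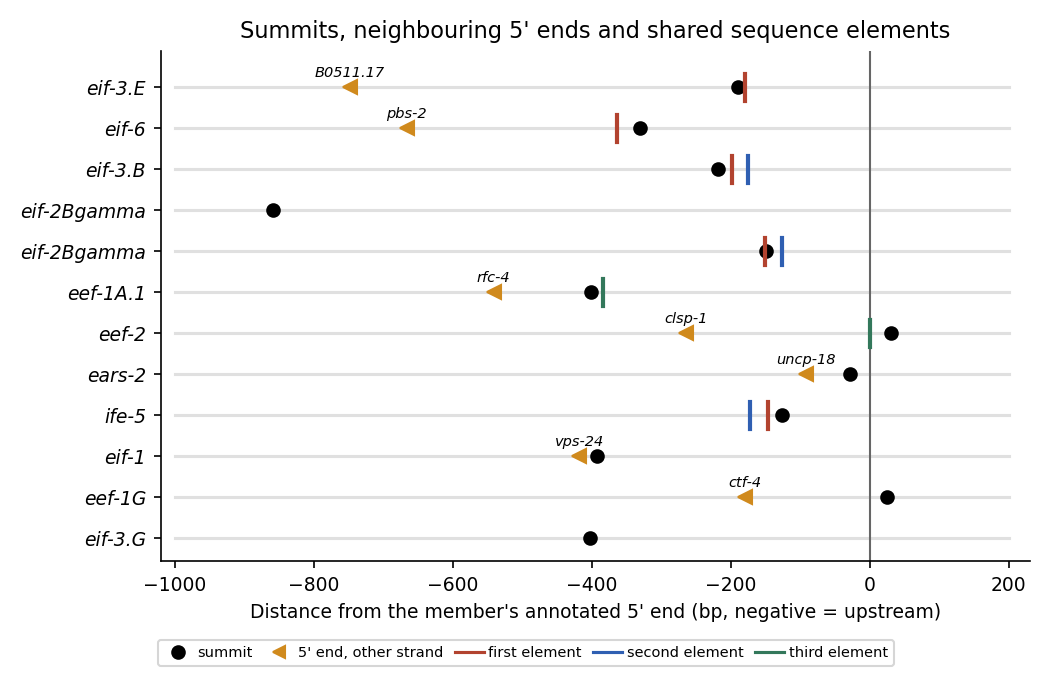
Position of each member peak's summit (black) relative to the member's 5' end at 0 (x axis, bp, negative is upstream), with the 5' end of the opposite-strand partner (triangle) and the 3 sequence elements (bars). At eef-1A.1 and eif-1 the summit lies nearer the partner, and in eif-3.B, eif-2Bgamma and ife-5 the first 2 elements lie close together.

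Stretches of at least 10 bases held by 2 or more member centres (100 bases around the summit, both strands) formed 7 separate runs, and 3 elements were taken from them after they had been seen. The counts among members therefore describe the choice. Windows of other genes are given without those that overlap a member centre, since partner genes share the peaks from which the elements came. The first element, AACGACNCTCCG, was in 5 of 12 member centres, those of eif-3.B, eif-3.E, eif-6, the nearer eif-2Bgamma peak and ife-5. It was also in 82 of 2216 other centres (3.7%), in 0.113% of flanks 250 to 350 bp from those summits and in 0.155% of the 100 bases before all protein-coding 5' ends. Listed peaks with it, members included, had a median signal of 464.8, beside 130.7 without it, and 37 of the 100 strongest peaks held it. Of 186 other genes with it in the window 59.1% were called, beside 5.56% of other genes without it. One match and one peak can lie in the windows of several genes, so this share and those for the other elements count genes, not separate peaks. All 5 translation factors with the first element in the window were called, but it was taken from the peak centres of these same 5 genes. No synthetase window held it. Only 0.935% of other genes had it in the window, so its absence from a group as small as the synthetases shows no difference between the groups.

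The second element, GTGTTGTTT, was in 3 member centres, at eif-3.B, eif-2Bgamma and ife-5, each time on the same strand as the first and 13 to 15 bases downstream of it. The sequences of eif-3.B and eif-2Bgamma printed above show this order. In the other centres it occurred in 2.66%, beside 0.158% of flanks and 0.255% of the 100 bases before all 5' ends. Of 577 other genes with it in the window 16.3% were called, beside 5.76% without it, and 62 of its 1995 matches in the genome (3.11%) lay in listed centres. Of the 82 other centres with the first element 17 held both, all 17 with the second downstream on the same strand, and in 15 of them the gap was also 13 to 15 bases. Over the 6 nuclear chromosomes 29 such pairs were found, and the first element of 19 of them (65.5%) lay in a listed peak's centre. Of all 348 matches to the first element 88 (25.3%) did so. These genome counts include the member matches from which the elements and the gap were taken.

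Part of these matches lay in sequence that RefSeq prints in lower case, its mark for repeats and low-complexity sequence. This held for 204 of the 348 matches to the first element and 11 of the 29 pairs. Masked bases made up 69% of the centre at eif-6, 63% at ife-5, 27% at the nearer eif-2Bgamma peak, 20% at eif-3.E and 2% at eif-3.B. The median was 44.5% over the other peaks with the first element, 20% over those without it and 20% over the member peaks. The strongest matches at members were thus found in masked and in unmasked surroundings, and the part of repeats in the peaks was not tested.

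The third element, TAGATGTGCAGG, was in the centres of eef-1A.1 and eef-2, both elongation factor genes. It lies within a run of 16 bases, GTTAGATGTGCAGGCA, that these 2 centres share and no other listed centre held. Of the 12-base parts of that run it was taken as the one in most other centres, so its count there describes the choice too: 6 of 2216 (0.271%), beside 0 of 4432 flanks. Those 6 peaks lay in the windows of rpl-33 and, nearer, farl-11 (signal 840.4), of tba-2 (484.2), of sec-61.G and F32D8.13 (388.9), of Y17G7B.20 (288.6), of cey-2 and xrep-4 (261.4), and of rps-26 and, nearer, tmem-107 (252.4). Of 24 other genes with it in the window 12 were called, a count that includes the genes at these peaks, and none of its 40 matches in the genome was masked. A match is a description of the letters and does not show where the protein bound.

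The member centres without any of these elements were those of ears-2, eif-1, eif-3.G, eef-1G and the farther eif-2Bgamma peak. Of 3 six-base words picked from peaks outside the member windows, CGCGCG was in 6.41% of the other centres and 0.519% of flanks, and among members at ears-2 and eif-3.E. The words ACGCGG and GCGGCC, in 5.82% and 6% of the other centres, were both at eif-3.B, where they overlapped in a single stretch. The centre of ears-2 (chrIV:390469-390545, minus strand, 77 bases outside any UTR) and that of eif-3.G (chrII:8442314-8442413, plus strand) are shown as the only synthetase peak and as the weakest member peak. Capitals are absent because neither holds one of the 3 elements.
ears-2: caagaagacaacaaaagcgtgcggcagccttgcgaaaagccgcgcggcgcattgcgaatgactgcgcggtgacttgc
eif-3.G: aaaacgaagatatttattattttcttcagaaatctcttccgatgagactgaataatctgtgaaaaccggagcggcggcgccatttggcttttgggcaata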

How the data were processed

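ChIP-seq peak lists from 2 biological replicates of 1 group were analysed. Per the labels, fragments were sheared to 200 to 800 bp and the build is ce11. Which aligner and peak caller were used, and on what scale signal values lie, is not given in the sources used here. The authors deposited for each peak a signal value (column 7), used to describe and rank peaks, and a score that encodes the IDR (830 at the threshold). In the deposited candidate lists the −log10 of the IDR was read as a further score, and 4 unlabelled value columns there were not used. No read counts were used, so depth is unknown, and intervals (Clopper-Pearson, 95%) cover counting error only.

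Members, roles and lists were chosen with earlier results of these data known. Named were all called members, the 3 members per group closest to the threshold by score, and called genes of the other translation list; uncalled members are otherwise given by name and range. Genes came from Ensembl release 115 (WBcel235, the same assembly as ce11) and sequences from RefSeq for that assembly. Six-base words were picked from peaks outside member windows, held by at least 5% of centres, as the 3 with the largest ratio of centres to flanks. The longest run shared by members was looked at first, the search was then widened to all runs of at least 10 bases, and rules for taking 3 elements were written after the runs had been seen: 12-base stretches differing at 1 base merged, the longest stretch common to 2 remaining runs, and the 12-base part of the longest run found in most other centres. An earlier hand-picked version of the second element was shifted by 1 base. Genome and masking counts were also added then.

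Calls were repeated with windows of 500 and 2000 bp, with the list of 1 replicate at a time, with the conservative list, with the stronger 50% of peaks, and with any transcript's 5' end, peak overlap of at least 1 bp, the nearest 5' end and lists without peaks within 100 bp of tRNA, snRNA or snoRNA genes. Lists without peaks of signal under 20 were added after seeing the data. The assignment was tested on simulated peaks over 19973 genes, where 209 of 209 placed in windows were found and 0 of 191 outside were called. Python 3.11.15, numpy 2.4.6, pandas 2.3.3, scipy 1.17.1 and matplotlib 3.10.9 were used.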

Additional observations from a re-analysis of the deposited data

How the results depend on the processing

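No paired analysis was possible because all samples belong to 1 group. The stronger 50% of peaks held 6 translation factors and 0 synthetases, 6 members in all, beside 3.97% of all protein-coding genes. There 4 of 7 member peaks were shared, and the median signal at translation factors was 364.5. A window of 2000 bp upstream gave 2 synthetases (6.45%), beside 8.2% of all protein-coding genes. In that window 12 of 16 member peaks were shared, and the median signal at translation factors was 216.2. Counting any overlap of the peak with the window gave 2 synthetases (6.45%), beside 6.65% of all protein-coding genes, and a median of 216.2. Both settings added iars-2, whose peak of 110.9 lay 1145 bp upstream. The median at translation factors was 265.0 in the conservative list and 248.4 with the nearest 5' end only, beside 176.4 as reported. Any transcript's 5' end added eif-3.I (157.3), where 6.76% of all protein-coding genes were called. With a single replicate's list, 7 to 8 translation factors, 0 to 1 synthetases and 8 members were called, 4 to 7 member peaks were shared, the median was 129.6 to 156.7 at translation factors, on the single-replicate scale, and 67.2 at the synthetase in replicate 2. Without peaks of signal under 20 the list of replicate 2 held 7 members, having lost ife-5, beside 4.02% of all protein-coding genes. Translation factors were called at a higher share than all protein-coding genes under every setting run. No setting held the arrangement of neighbouring genes fixed. Within each arrangement the share was also higher (33.3% beside 14%, 28.6% beside 7.21% and 16.7% beside 3.66%). With 18, 7 and 12 translation factors these differences were not resolved. With 1 synthetase called, its count rests on a single peak, and leaving out replicate 2 removed it.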
